A study of Homo sapiens with 4 samples.

Results

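The DLX genes are distal-less homeobox genes, and 5 of them, DLX1, DLX2, DLX3, DLX4 and DLX5, are described here from the 59385 gene rows of a count table of RNA sequencing in C4-2 cells. They were chosen by gene symbol, with the measured fact that DLX1 was the best covered, and their fold changes were already known at that point. Their values are therefore given as a description. The table reads as if counts had been assigned to the strand opposite to each gene, so a level here is that of a named row and need not be that of the gene's own transcript. C4-2 is a human prostate cancer line of the LNCaP lineage, expresses the androgen receptor and grows without androgen, and all libraries come from this line. Total RNA was sequenced with a stranded library kit from cells labelled with a small interfering RNA against EZH2 (siEZH2, n = 2 libraries) or with a control one (siCTRL, n = 2 libraries). The labels give neither the dose nor the time of the transfection, and they do not say whether replicates were separate cultures, so a p-value here reflects the scatter of these libraries alone, and part of that scatter may be technical.

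DLX proteins are transcription factors that carry a homeodomain, a fold that binds short AT-rich DNA sequences. The genes lie in pairs that point towards each other, and in vertebrate embryos they pattern the ventral forebrain, the branchial arches, the limbs and the skin appendages. Like many regulators of development, they are held silent in most adult cells by Polycomb repressive complex 2, whose catalytic subunit EZH2 methylates histone H3. DLX1 is an exception in prostate cancer, where its transcript is common and has been used as a urinary marker.

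The promoters of DLX1 and DLX2 are shown because these neighbours share a locus, while their rows gave the highest and one of the lowest levels of the family. They are RefSeq sequences on GRCh38.p14, from 250 bases before to 50 bases after the annotated start, 5′ to 3′, and 2 of the 5 members had an entry. The RefSeq start of DLX1 lies 767 bases downstream of the gene start in GENCODE release 29, from which positions and distances of genes are given here, so its window lies inside the GENCODE gene. DLX1 is on the plus strand (chr2:172085257-172085556) and DLX2 on the minus strand (chr2:172102851-172103150). Capitals mark the CCAAT box on either strand (CCAAT or ATTGG).
DLX1: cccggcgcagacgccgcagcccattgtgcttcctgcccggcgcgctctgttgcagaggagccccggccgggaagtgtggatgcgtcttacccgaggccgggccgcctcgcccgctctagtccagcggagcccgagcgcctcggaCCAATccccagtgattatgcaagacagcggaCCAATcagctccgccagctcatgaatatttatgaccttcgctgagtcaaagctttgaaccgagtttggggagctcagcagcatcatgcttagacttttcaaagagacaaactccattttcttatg
DLX2: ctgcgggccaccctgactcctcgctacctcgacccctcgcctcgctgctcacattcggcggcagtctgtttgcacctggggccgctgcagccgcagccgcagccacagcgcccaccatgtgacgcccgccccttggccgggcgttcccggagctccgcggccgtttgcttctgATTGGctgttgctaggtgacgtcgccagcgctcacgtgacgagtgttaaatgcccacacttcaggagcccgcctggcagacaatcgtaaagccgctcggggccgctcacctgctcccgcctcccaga
The CCAAT box occurred 2 times in the DLX1 window and 1 time in the DLX2 window, and 34.6% of 35116 RefSeq promoters of this length hold one. Neither window held the homeodomain core TAATTA or the TATA box TATAAA, searched on both strands, which occur in 4.84% and 11.5% of promoters, and no match of these motifs overlapped another. Both windows held more CpG dinucleotides than the median promoter, and a high CpG content is a feature of promoters that Polycomb binds. DLX1 had 23 and DLX2 had 30, where the median promoter had 14 and the upper quartile was 28. DLX1 thus lay under the upper quartile and DLX2 above it. The DLX2 window also covers the start of DLX2-DT, a divergent long non-coding RNA whose start lies 106 bases from that of DLX2.

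Library totals ran from 6162123 to 6867542 counts. In rows that face each other, the counts lay mostly on the side that is not the abundant gene. BEST1, a chloride channel gene of the eye, held a mean of 224335 counts, and FTH1, the ferritin heavy chain gene on its other strand, 391. MIF-AS1 held a mean of 53703 counts and MIF, a cytokine gene, 17. Of 477 antisense rows that face their coding partner over at least 100 bases, 322 (67.5%) had more counts per kb than that partner. In the mitochondrial genome, MT-ND6, the coding gene of the other strand, held 40596 counts on average and MT-CO1 2030. The library kit marks strand, and these pairs, picked after their values were seen, are what a count on the opposite strand would give. No DLX row or EZH2 can then be taken to measure its own transcript.

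The targeted gene could not check the labels. EZH2 held 60 and 131 counts in the libraries labelled siEZH2, against 39 and 59 in those labelled siCTRL. These were 1.2 to 2.77 times the density of the olfactory receptor rows described next, and the strand doubt applies to this row. The fitted log2 fold change for EZH2 was 0.51 (standard error, SE, 0.52). The quasi-likelihood F test of edgeR, with p-values adjusted over all tested rows by the Benjamini-Hochberg method, gave an adjusted p = 0.621. Each direction below thus compares a library labelled siEZH2 with one labelled siCTRL. The olfactory receptor family, normally silent outside the nose, served as a background. Its 405 rows together had a density of 4.64 and 6.27 counts per kb with siEZH2 and of 1.30 and 3.14 counts per kb with siCTRL, where the kb are those of the deposited row lengths, so this background itself differed between the groups.

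DLX1 (GRCh38 chromosome 2, 172084740 to 172089677, plus strand), which with DLX2 drives the making of inhibitory neurons in the embryonic mouse forebrain, held nearly all counts of the family. Its row held 282 and 174 counts in the siEZH2 libraries and 513 and 469 counts in the siCTRL libraries. Both siEZH2 libraries were lower than both siCTRL libraries, and the groups did not overlap. The siEZH2 libraries also differed from each other by more than counting error, since their exact Poisson 95% intervals were 250 to 317 and 149 to 202 counts. The siCTRL intervals, 470 to 559 and 428 to 513, overlapped. As shares of the library totals the DLX1 counts came to 44.3 and 28.2 CPM with siEZH2, against 74.7 and 68.8 CPM with siCTRL, where CPM are counts scaled to the library's size. Scaled by TMM, which equalises the bulk of the tested rows between libraries, DLX1 stood at 30.9 ± 13.3 CPM in siEZH2 libraries and 90.2 ± 23.5 CPM in siCTRL libraries (SD, n = 2 each). That is a log2 fold change, siEZH2 over siCTRL, of -1.55 (SE 0.43, 95% interval -2.45 to -0.64). In bulk RNA, fewer cells with the counted RNA and less of it per cell cannot be told apart.

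That difference did not pass the test over all rows (edgeR adjusted p = 0.189). In that test 0 of 24431 rows were called higher and 0 lower, or 0% in each direction. At an unadjusted p under 0.05 it gave 2083 rows higher (8.53%) and 1932 lower (7.91%), with DLX1 among the lower ones. Non-overlap in TMM-scaled CPM with both siEZH2 libraries below was common too, at 22.9% of tested rows. With 2 libraries in each group, the smallest two-sided p of an exact permutation test on DLX1 alone would be 0.333. DLX1 was called lower by DESeq2 (adjusted p = 0.0116), which called 17.1% of the rows it adjusted lower, and by limma-voom (adjusted p = 0.0178), which called 1.37% lower. It was also called lower by edgeR without siEZH2 replicate 1, the higher of the siEZH2 libraries (adjusted p = 0.0273, with 0.593% of rows called lower). Scaling factors from well-covered rows alone (200 counts or more in 2 or more libraries) made the log2 fold change -0.85, and library totals alone made it -0.97, so its size depended on the scaling by over 1.5 times while its sign did not.

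**Figure D1:**
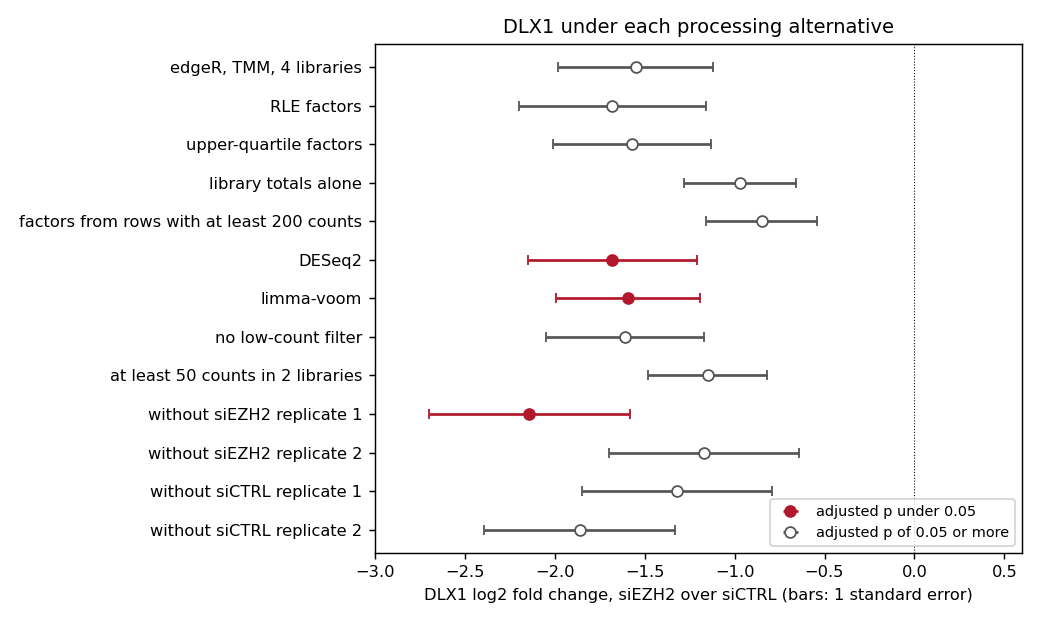
The log2 fold change of DLX1, siEZH2 over siCTRL (horizontal axis), is plotted for each processing alternative but the replicate block (rows), with bars of 1 standard error and filled points where the adjusted p is under 0.05. The values lie between -2.14 and -0.85, all negative, and 3 of the 13 fits call DLX1 lower.

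Rows with as many counts as DLX1 tended to be lower with siEZH2 as well. Of 1928 tested rows with a mean of 200 to 1000 counts, 1842 (95.5%) had a negative log2 fold change, with a median of -0.75 and quartiles of -1.0 and -0.49. DLX1, with a mean of 360 counts, lay below the lower quartile, and 47 of these rows (2.44%) had a value at or below it. In 1430 of them (74.2%) both siEZH2 libraries lay below both siCTRL libraries, as in DLX1. The median over all 24431 tested rows was 0.22 under TMM, 0.77 under library totals and 0.88 under the scaling on well-covered rows. The DLX1 row thus lay below the typical row of its count class, and that class itself lay below the typical tested row.

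**Figure D2:**
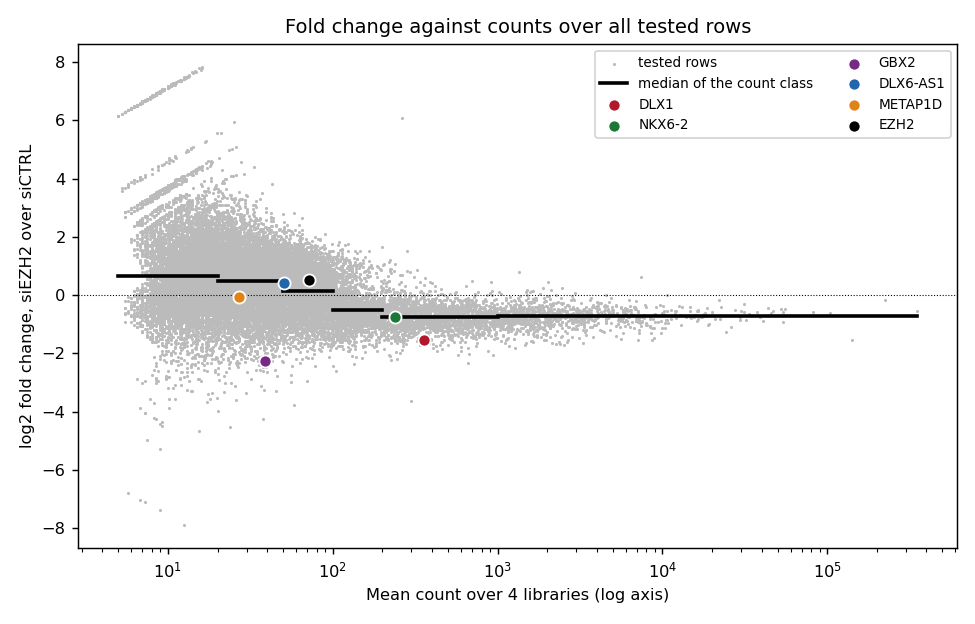
Each grey point is a tested row, with its mean count over the 4 libraries on a log axis and its log2 fold change, siEZH2 over siCTRL, on the vertical axis; black bars are medians of count classes. DLX1 (-1.55 at a mean of 360 counts) lies below the median of its class (-0.75), while NKX6-2 (-0.76) lies on it. GBX2 (-2.26 at a mean of 38.8 counts) lies below the lower quartile of all tested rows (-0.55), and some rows of similar count lie as low.

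Per length, the DLX1 level was high for the table. It had 79.0 and 48.7 counts per kb in the siEZH2 libraries, against 144 and 131 in the siCTRL libraries, and these levels were 17 and 7.77 times the olfactory receptor background with siEZH2 and 110 and 41.8 times with siCTRL. Because that background was higher with siEZH2, the ratio to it differed more between the groups than the level did. Because of the strand doubt, the surroundings of each DLX row were examined in GENCODE release 29. None of the exons of DLX1, DLX2, DLX3, DLX4 or DLX5 overlapped an annotated exon of an opposite-strand gene. Among all 18944 protein-coding rows placed by symbol, DLX1 ranked 831st in mean counts per kb, which is the top 4.39%. Among the 12494 free of opposite-strand exon overlap, it ranked 92nd, which is the top 0.736%. It had 101 counts per kb there, and the median row had 5.17. Whether the counts came from DLX1's own strand cannot be told from the table.

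DLX2 (chromosome 2, 172099439 to 172102900, minus strand), the partner of DLX1 in forebrain interneurons, ends 9762 bases from the end of DLX1. It held 0 and 4 counts in the siEZH2 libraries and 5 and 14 in the siCTRL libraries. The siEZH2 libraries were again the lower ones, but the exact Poisson 95% intervals of 4 and 5 counts were 1.09 to 10.2 and 1.62 to 11.7, and those libraries could not be told apart at this depth. The count of 0 was read as allowing 3 counts in its library, and its exact Poisson 95% interval reached 3.69. DLX2-DT, its divergent non-coding neighbour, held 0 and 2 counts with siEZH2, against 2 and 6 with siCTRL. DLX2 was at 0 and 0.215 times the olfactory receptor background with siEZH2, and at 1.29 and 1.5 times with siCTRL, near the level of these silent genes. On the other side of DLX1, METAP1D, a methionine aminopeptidase gene that ends 2310 bases before DLX1, held 22 and 40 counts with siEZH2 and 24 and 22 with siCTRL. Its log2 fold change was -0.05 (SE 0.76, edgeR adjusted p = 0.977), and the difference between its value and that of DLX1 was not tested.

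DLX3 and DLX4 lie on chromosome 17, with their ends 15046 bases apart. DLX3 (49990005 to 49995224, minus strand), which acts in hair, teeth, bone and the outer layers of the epidermis, held 14 and 8 counts in the siEZH2 libraries and 4 and 2 in the siCTRL libraries. The siEZH2 libraries were higher in this gene, the opposite order to DLX1, as in 31.4% of tested rows, and both groups were within 0.235 to 1.13 times the background. DLX4 (49968970 to 49974959, plus strand), known in placenta and blood cells, held 6 and 10 counts with siEZH2 and 8 and 8 counts with siCTRL. Its groups overlapped. Per length its means were 2.21 counts per kb with siEZH2 and 2.21 with siCTRL.

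DLX5 (chromosome 7, 97020392 to 97024950, minus strand), a regulator of bone and of the jaw, held 4 and 6 counts in the siEZH2 libraries and 4 and 4 counts in the siCTRL libraries. Its groups touched in raw counts, and its level ran from 0.494 to 1.76 times the background over the 4 libraries. DLX6, its partner in the limb and jaw, whose end lies 9353 bases from that of DLX5, held 8 and 7 counts with siEZH2 and 3 and 4 with siCTRL. DLX6-AS1, a long non-coding RNA of that locus known in mouse forebrain, held 38 and 94 counts with siEZH2, against 34 and 36 with siCTRL, over a row of 16907 bases. Of the DLX-named rows it passed the filter along with DLX1, with a log2 fold change of 0.43 and a standard error of 0.60 (edgeR adjusted p = 0.729).

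**Figure D3:**
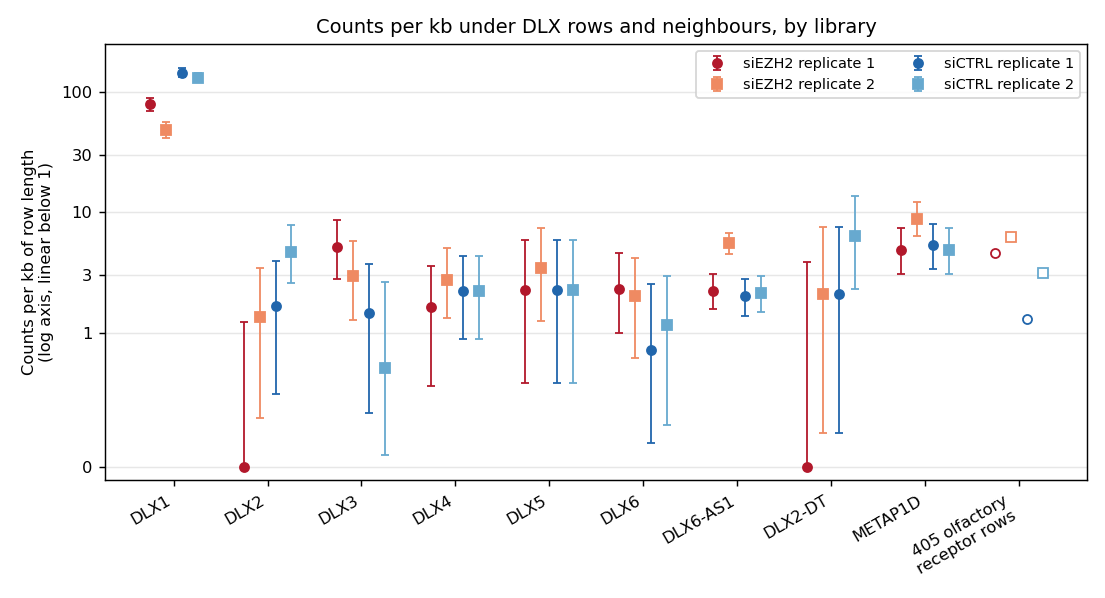
Counts per kb (vertical axis, logarithmic above 1 and linear below) are plotted for each DLX row and its neighbours in each library, with exact Poisson 95% intervals that cover counting error only; open symbols are the pooled olfactory receptor rows. DLX1 lies between 48.7 and 144 counts per kb, and DLX2, DLX3, DLX4, DLX5 and DLX6 lie between 0 and 5.16.

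DLX1 passed the filter on low counts, and the other 4 members did not. DLX2 to DLX5 summed to 24 and 28 counts in the siEZH2 libraries and to 21 and 28 counts in the siCTRL libraries. The groups overlapped in these raw counts. Under TMM scaling both siEZH2 sums lay below both siCTRL sums, a difference that was not tested. DLX1 made up 92.2% and 86.1% of the family's counts with siEZH2 (exact binomial 95% intervals 88.6% to 94.9% and 80.6% to 90.6%), against 96.1% and 94.4% with siCTRL (94.1% to 97.5% and 92.0% to 96.2%). Per length DLX1 stood 36.4 and 19.2 times above the pooled DLX2 to DLX5 rows with siEZH2 and 75.7 and 51.9 times above them with siCTRL. When edgeR was run with no filter, DLX2 had a log2 fold change of -2.69 (SE 2.14, adjusted p = 0.791). DLX3 had 1.30 (SE 1.94, adjusted p = 0.85), DLX4 had -0.55 (SE 1.68, adjusted p = 0.937) and DLX5 had -0.22 (SE 2.40, adjusted p = 0.984), so differences in these rows were not detectable at this depth. Of their 15 counts above 0, 14 were even numbers, and 70.1% of all counts from 1 to 20 in the table were even. Single counts may thus not be independent reads, and the intervals would then be too narrow. The members share little sequence through which counts could pass between them, since the longest identical run between the coding transcripts of DLX1 and of another DLX gene was 18 bases, with DLX6, and the longest in the family was 23.

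The annotation places 19 genes within 100 kb of a member, of which 11 have a row of that name and 6 were tested. In those 6 rows 2 log2 fold changes were positive and 4 negative, from -1.03 for SLC25A12, a mitochondrial aspartate-glutamate carrier gene near DLX1, to 0.43 for DLX6-AS1, and 0 were called (0% in the table). ITGA3, an integrin gene beside DLX3, had 0.05 and PDK2, a pyruvate dehydrogenase kinase gene, -0.05. SDHAF3, an assembly factor of succinate dehydrogenase near DLX5, had -0.33 (edgeR adjusted p from 0.519 to 0.977 over the 6). Under the scaling on well-covered rows small negative values such as these can change sign.

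The 5 tested rows whose TMM-scaled log2 CPM over the 4 libraries lay closest to DLX1 were RP11-697H9.2, RP11-265N6.2, RP11-6O2.4, PP2D1 and RP11-860B13.3. Their distances were 0.22, 0.32, 0.33, 0.33 and 0.35 log2 units, and their log2 fold changes ran from -1.56 to -1.25. RP11-697H9.2, the closest, held 254 and 193 counts with siEZH2 and 491 and 460 with siCTRL. PP2D1 faces RAB5A, a gene of endosome traffic, on the other strand, and the 4 clone-named rows could not be placed by symbol. A likeness over 4 libraries describes level and pattern together and singles out no group.

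Most rows of other homeobox genes of the same class (the ANTP class outside the HOX clusters) had levels far under that of DLX1. Over 4 libraries DLX1 ranked first of 55 such rows in mean counts per kb. The 49 rows outside the DLX family had a median of 3.18 counts per kb. NKX6-2, a regulator of neural tube and oligodendrocyte development, came second and held 98.2 and 52.7 counts per kb with siEZH2, against 88.8 and 104 with siCTRL, above DLX1 in both siEZH2 libraries and below it in both siCTRL libraries. Its row faces INPP5A on the other strand, and its log2 fold change was -0.76 (SE 0.44, edgeR adjusted p = 0.374). VAX1, a gene of eye and forebrain development, had -0.17 (edgeR adjusted p = 0.908). Of 21 tested rows in this list 16 were positive and 5 negative, where 43.3% of all tested rows were negative under TMM. Signs varied with the count of a row, and rows of like count were not compared. The list median was 0.75 under TMM and 1.42 under the scaling on well-covered rows. None was called higher or lower by edgeR. At an unadjusted p under 0.05 it counted 0 higher and 1 lower, next to 8.53% and 7.91% of all tested rows. Since 28 of the 49 rows did not pass the filter, these counts do not cover the list.

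Genes known to act upstream of DLX genes or to depend on them in other tissues were mostly near the background. Of 25 upstream genes, such as bone morphogenetic proteins and their receptors, 18 were tested, with 14 positive and 4 negative values. Their median log2 fold change stood at 0.52, and 43.3% of all tested rows were negative. That share varied with the count of a row, and this list was not compared with rows of like count. SMAD4, the shared mediator of that pathway, had 0.60 (SE 0.53), and BMPR1B, a receptor, had 1.26 (SE 0.60; edgeR adjusted p = 0.557 and 0.305). TP63, which activates DLX3 in epidermis, held 44 and 67 counts with siEZH2 and 5 and 20 with siCTRL (edgeR adjusted p = 0.275). It was the upstream gene past an unadjusted p of 0.05.

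Of 22 genes that depend on DLX1 and DLX2 in mouse forebrain 16 were tested, 14 positive and 2 negative, with a median of 0.79. ZEB2, a repressor that directs interneuron migration, had 1.02 (SE 0.50), under a row that faces ZEB2-AS1, and ERBB4, a neuregulin receptor of interneurons, had 0.97 (SE 0.54; edgeR adjusted p = 0.317 and 0.357). GAD1, which makes the transmitter GABA, held 10 and 61 counts with siEZH2, against 6 and 37 with siCTRL, and GAD2, which does the same, held 26 and 58 counts with siEZH2, against 11 and 23 with siCTRL. Of 19 bone and skin genes 15 were tested, 10 positive and 5 negative, with a median of 0.53. HOXC13, a hair regulator whose row faces HOXC13-AS, had -0.30 and COL1A2, a collagen of bone, 0.56 (edgeR adjusted p = 0.791 and 0.584). KRT10, a keratin of the upper epidermis with the same mean count as COL1A2, had -0.95 (edgeR adjusted p = 0.348), under a row that faces TMEM99. In these 3 lists 0 rows were called in either direction, as in the table. At an unadjusted p under 0.05 there was 1 higher and 0 lower, next to 8.53% and 7.91% of all tested rows. The PRC2 list had 8 positive and 3 negative of 11 tested, with a median of 0.53, where RBBP7 had -0.56 and RBBP4 -0.32 (edgeR adjusted p = 0.494 and 0.738), and 0 were called. Medians of all 4 lists were positive under each of the scalings, next to medians over all tested rows that were positive too. Of all tested rows, 43.3% had a negative value under TMM. These 4 lists were not compared with rows of like count, so their signs are not read as a trait of the lists.

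**Figure D4:**
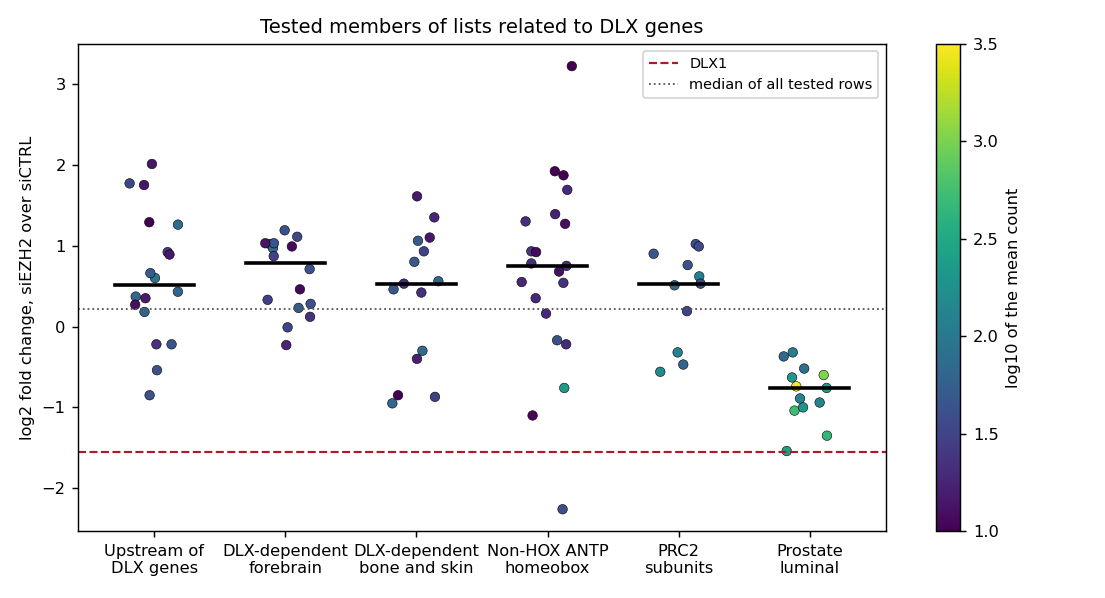
Each point is a tested member of a list, with its log2 fold change, siEZH2 over siCTRL, on the vertical axis and its mean count as colour on a log10 scale; black bars are list medians and the dashed line is DLX1. Medians of the 6 lists drawn run from -0.76 for the prostate luminal genes to 0.79 for the forebrain genes, and the median of all tested rows is 0.22.

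Rows named for markers of the labelled cell type were well covered, within the strand doubt. All 13 luminal prostate and androgen receptor-positive line markers with a row passed the filter. KLK2, an androgen-driven secreted protease of the prostate, held 159 and 162 counts with siEZH2, against 358 and 320 with siCTRL. KLK3, the related prostate-specific antigen, held 270 and 374 counts with siEZH2, against 594 and 588 with siCTRL. All 13 markers had a negative log2 fold change under TMM, with a median of -0.76, and 8 of 13 did under the scaling on well-covered rows, with a median of -0.06. For comparison, 95.5% of tested rows with a mean of 200 to 1000 counts were negative under TMM. KRT8 and KRT18, the markers with most counts, had -0.74 and -0.60 and face each other's rows (edgeR adjusted p = 0.464 and 0.48). None of the 13 was called by edgeR, and 5 were lower at an unadjusted p under 0.05, as were 7.91% of all tested rows.

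Markers of other cell types were near the olfactory receptor background. Basal epithelial markers summed to 4.70 and 4.26 counts per kb with siEZH2 and 1.18 and 3.72 with siCTRL. Neuronal markers, including those of the inhibitory neurons that use DLX1, stood at 4.35 and 7.84 with siEZH2 and 2.19 and 4.59 with siCTRL. Fibroblast and osteoblast markers had 5.84 and 7.0 with siEZH2, against 2.05 and 4.91 with siCTRL. Endothelial markers had 7.84 and 8.49 with siEZH2, against 1.70 and 4.02 with siCTRL, and leukocyte markers had 4.50 and 7.09 with siEZH2, against 1.44 and 3.48 with siCTRL. Of the 33 markers in these 5 lists, counted once per list, none was at 0 in all 4 libraries. SLC32A1, the vesicular GABA transporter, and STMN2, a neuronal tubulin-binding protein, were at 0 in siEZH2 replicate 1, and KRT15, CD14 and LYZ were at 0 in siCTRL replicate 1. The endothelial list had the highest median log2 fold change, 1.55, with 3 of 5 markers higher at an unadjusted p under 0.05, as were 8.53% of all tested rows, and 0 called by edgeR. In all 5 lists but the neuronal one, both siEZH2 libraries lay above both siCTRL libraries, as they did for the olfactory receptor rows. The part of these levels in the DLX values was not tested.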

How the data were processed

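Groups and replicate numbers of the 4 libraries come from their titles. The table deposited by the authors holds raw counts as whole numbers, 1 column per library, and the length of each row in bases. Tools named in the submitters' processing notes, without role or order, are featureCounts 2.0.3, STAR 2.7.10b, limma and edgeR, and the build is hg38 (GRCh38). Neither the annotation release nor the strand option used for counting is given in the sources used here, and opposite-strand row pairs look as if the opposite strand was counted. The members, the 7 gene lists, the 6 lists of cell markers and the alternatives were chosen with earlier results of these data known.

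The test was the quasi-likelihood F test of edgeR 4.0.16 (glmQLFit, glmQLFTest; R 4.3.3), siEZH2 over siCTRL, without covariates, on the 24431 rows left by filterByExpr after TMM scaling. P-values were adjusted over all those rows (Benjamini-Hochberg), and calls were made at 0.05. The standard error (SE) is the absolute log2 fold change over the square root of F. TMM factors were 1.12 and 1.34 for the siEZH2 libraries and 0.704 and 0.945 for the siCTRL libraries. The biological coefficient of variation was 46.5%. Log2 CPM used a prior count of 2, and likeness to DLX1 was the Euclidean distance over them. Intervals are at 95%. Those on counts and shares cover counting error only, and the interval of the DLX1 fold change comes from the edgeR SE, which includes scatter between libraries. A count of 0 was read as allowing 3 counts, a set floor.

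Rows were placed on GENCODE release 29 by symbol where it occurs once (37665 rows, 63.4%). Named genes were the members, EZH2, neighbours within 100 kb, the 2 tested genes of each pathway list with the highest mean counts (ties included) and the 5 rows most like DLX1. TP63, GAD1, GAD2, KLK2, KLK3, KRT8, KRT18, KRT15, CD14, LYZ, SLC32A1, STMN2, GBX2, PICART1 and the strand pairs were singled out once values were known. The alternatives tried were RLE factors, upper-quartile factors, library totals, scaling on rows with at least 200 counts, DESeq2 1.42.0, limma-voom (limma 3.58.1), other filters, a replicate block and each library left out. Other steps used Python 3.11.15 with matplotlib 3.10.9, scipy 1.17.1, numpy 2.4.6 and pandas 2.3.3.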

Additional observations from a re-analysis of the deposited data

How the results depend on the processing

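The DLX1 log2 fold change was negative under every alternative run, from -1.68 with RLE factors or DESeq2 to -0.85 with scaling on well-covered rows among the fits on all 4 libraries. It passed the threshold with DESeq2 (-1.68, adjusted p = 0.0116), limma-voom (-1.59, 0.0178) and the replicate block (-1.59, 0.00131), and in each of these 1 member was called. Leaving out each library gave -2.14 to -1.17, with 0 to 1 members called, and adjusted p from 0.0273 to 0.973. The lone library of a group is then assumed to vary like the other group. Rows called over the table were 0 in the fit reported, 13 with RLE factors, 868 with DESeq2, which gave no adjusted p to 19420 rows, 345 with limma-voom, 80 with no low-count filter, 1327 with the replicate block, and 1 to 234 with each library left out. The replicate numbers are shared by label alone. Deviations of same-numbered libraries correlated at 0.0502 across tested rows, so the block is not taken as a pairing.

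For the rows under the filter, differences in mean log2 CPM were computed without a test. DLX2 and DLX3 moved by less than their spread between libraries. DLX4 was -0.39, 0.09 with library totals and 0.18 with scaling on well-covered rows. DLX5 was -0.10, 0.31 and 0.39 in the same order, and -0.31 to -0.01 with each library left out. The summed DLX level was -1.46, -0.88 with library totals and -0.76 with scaling on well-covered rows, and -2.0 to -1.13 with each library left out. The causes were not tested. For DESeq2, limma-voom, the block and the filter at 50 counts these log2 CPM differences are not reported here. With a biological coefficient of variation of 46.5% and counts under 15 in those rows, the depth limits what they can show.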

Other observations

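GBX2, a homeobox gene of the midbrain-hindbrain boundary, had the most negative log2 fold change of the 21 tested homeobox rows outside the DLX family and was picked for it. It held 14 and 20 counts in the siEZH2 libraries and 52 and 69 in the siCTRL libraries, with a log2 fold change of -2.26 and a standard error of 0.64 (edgeR adjusted p = 0.189), and the groups did not overlap, with siEZH2 the lower, as in 22.9% of all tested rows. Its row faces the non-coding row AC019068.1 in GENCODE release 29. After DLX1 and NKX6-2 it had the third highest mean counts per kb of the 55 homeobox rows, at 16.6.

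Of 14 names listed as partners at the DLX loci 11 had a row and 8 were tested, 5 positive and 3 negative under TMM and 7 and 1 under scaling on well-covered rows, with medians of 0.24 and 0.94 and 0 called by edgeR. ITGA6, an integrin gene on the side of DLX2, held 56 and 33 counts with siEZH2 and 60 and 111 with siCTRL, a log2 fold change of -1.31 (edgeR adjusted p = 0.261). SEM1, a proteasome subunit gene on the side of DLX6, held 63 and 146 counts with siEZH2 and 16 and 35 with siCTRL, a log2 fold change of 1.60 (edgeR adjusted p = 0.219). KAT7, a histone acetyltransferase gene on the side of DLX4, held 112 and 105 counts with siEZH2 and 34 and 48 with siCTRL, a log2 fold change of 0.98 (edgeR adjusted p = 0.329), under a row that faces FAM117A. PICART1, a non-coding RNA beside ITGA3, held 6 and 40 counts with siEZH2 and 2 and 8 with siCTRL and was under the filter.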
